A study of Homo sapiens with 2 samples.

Results

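The 8 genes described here encode the transcription factors that set up and hold the identity of the hepatocyte, the main cell of the liver: HNF4A, FOXA1, FOXA2, FOXA3, CEBPA, CEBPB, ONECUT1 and PROX1. Their peaks were taken from 2 lists, 1 per library, as every peak that the authors' annotation names for one of these genes, whatever its annotation class. That gave 19 of 29283 peaks in the drug library and 38 of 49854 peaks in the control library. FOXA3 was the only one of the 8 genes without a peak in the drug library, and all 8 had a peak in the control library. Over all genes with a control peak, 77.1% also had a drug peak.

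Both libraries were made by CUT&Tag from PLC8024, an established line of human liver cancer cells, with 1 library after 6 hours with a drug at 10 nM and 1 from control cells. In CUT&Tag an antibody steers a transposase to a chromatin protein or mark, and the fragments cut there are sequenced. The series concerns genes targeted by KIF11, a motor protein of the mitotic spindle, but the labels name neither the antibody nor the drug. With 1 library per group there was no replicate error and no test, so every comparison below describes these 2 libraries only. Intervals cover counting error alone and treat peaks as independent, though many share a gene.

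Liver identity is held by factors that bind each other's promoters and enhancers. Forkhead proteins of the FOXA family bind closed chromatin early in foregut endoderm and open it, HNF4A and the C/EBP proteins then drive the metabolic and secretory genes of the hepatocyte, and ONECUT1 and PROX1 act in the growth of the liver bud and in the choice between hepatocyte and bile duct fates.

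Peak numbers ran differently from gene to gene. In the drug library ONECUT1 had 6 peaks, HNF4A and FOXA1 had 4 each, CEBPB had 2, and FOXA2, CEBPA and PROX1 had 1 each. In the control library ONECUT1 had 10, PROX1 8, FOXA1 6, HNF4A 5, CEBPB 4, CEBPA 3, and FOXA2 and FOXA3 1 each. ONECUT1 thus stood among the genes with the most peaks by name, since only 2.51% of genes with a control peak had 10 or more. PROX1 was among the 4.93% with 8 or more. By name it also differed most in number between the lists, with 1 peak in drug against 8 in control. Counted by position within 50 kb, HNF4A had the most, with 10 drug and 21 control peaks. ONECUT1 had 5 and 11 there, and PROX1 had 4 and 13.

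**Figure D1:**
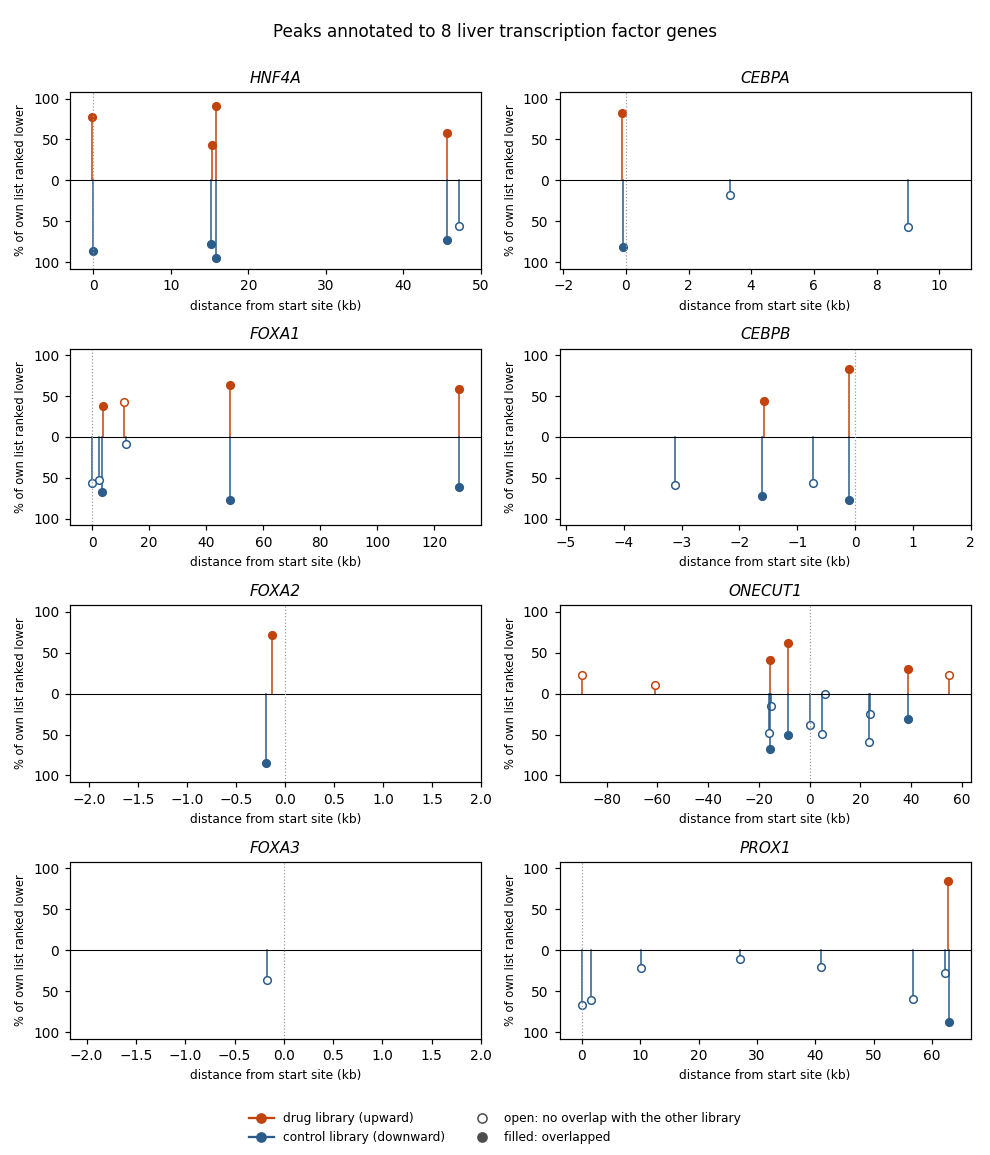
Peaks of the 8 genes, placed by distance in kb from the start site of the main promoter peak, with genes running left to right. Drug peaks point up and control peaks down, the length of each line is the share of the peak's own list that ranks lower, and filled circles are peaks overlapped in the other library by 1 bp or more. FOXA3 has a control peak alone. Of the control peaks named for them, ONECUT1 has 3 of 10 overlapped and PROX1 1 of 8, beside 40.1% of the whole control list.

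Overlap means here that a peak has 1 bp or more in common with some peak in the other library. Of the 19 drug peaks, 15 overlapped a control peak (78.9%, exact 95% interval 54.4 to 93.9), beside 70.7% over the whole drug list. Of the 38 control peaks, 15 overlapped a drug peak (39.5%, 24.0 to 56.6), beside 40.1% over the whole control list. Both shares lay near those of all peaks and say nothing particular about liver factors. By gene, 7 of the 8 had a control peak with a drug partner, beside 71.4% of all genes with a control peak. The 23 control peaks without a drug partner came from 7 of the genes, all but FOXA2.

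The position of a peak in its own list went with its overlap, as it did in the whole lists. Peak scores given here are the authors' own, by the convention of the peak caller 10 times the −log10 of the q-value, and a score says how firmly a peak was called in its library. With the list cut by score into 10 parts of equal size, all 10 control peaks of these genes in the strongest 3 parts, with scores from 189 to 1016, had a drug partner, beside 91.6% of all control peaks there. Of the 28 in the other 7 parts, with scores from 16 to 149, 5 had one, beside 18.0% of all. In the drug list all 10 peaks of the strongest 5 parts overlapped a control peak, beside 96.4% of all drug peaks there, and 5 of the 9 weaker ones did, beside 45.0%. The number of reads behind either list is unknown, and depth alone moves scores and list lengths, so its part in the missing drug peaks was not tested.

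**Figure D2:**
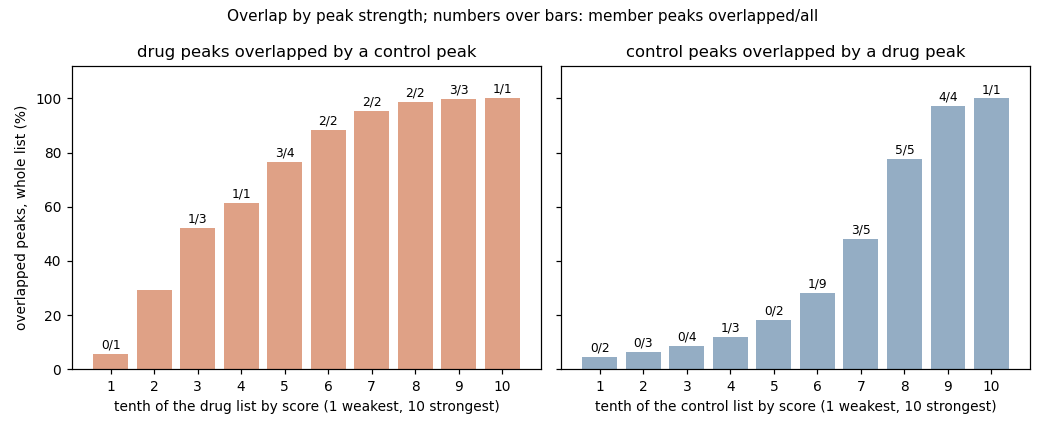
Share of all peaks overlapped by a peak of the other library (bars, %), over 10 equal parts of the drug list on the left and of the control list on the right, weakest part first. The numbers over the bars are overlapped peaks out of all peaks of the 8 genes in that part. In control these come to 10 of 10 in the strongest 3 parts and 5 of 28 below.

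Promoter peaks separated the 8 genes into equal groups of 4. HNF4A, FOXA2, CEBPA and CEBPB had a promoter peak in both libraries, and at each of them the drug peak overlapped the control peak. FOXA1, FOXA3, ONECUT1 and PROX1 had a promoter peak in control alone. With the control list cut to the length of the drug list, where its lowest score was 66, FOXA3 and ONECUT1 had no control promoter peak either, and 6 of the 8 genes had one. Over all 9106 genes with a control promoter peak, 77.7% were overlapped there by a drug peak, and over all drug promoter genes 97.9% were overlapped by a control peak, as were these 4 of 4.

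The scores of the 4 shared promoters were 199 at CEBPB, 187 at CEBPA, 151 at HNF4A and 115 at FOXA2 in the drug list, where the median over all promoter genes was 143. In the control list the order differed, with 425 at HNF4A, 386 at FOXA2, 321 at CEBPA and 254 at CEBPB, and the median was 361. So the C/EBP promoters led the 4 in the drug list, and HNF4A and FOXA2 led them in the control list. The 4 promoters found in control alone were the 4 weakest there, with 149 at PROX1, 98 at FOXA1, 60 at ONECUT1 and 58 at FOXA3.

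Promoters as weak as these were often without a drug peak in the whole control list. Split into 10 equal parts by control promoter score, FOXA3 and ONECUT1 fell in the weakest part, where 12.4% of genes had a drug peak at the promoter, FOXA1 in the next with 33.3%, and PROX1 in the next with 59.2%. CEBPB stood in a part with 80.1%, CEBPA in one with 93.4%, and HNF4A and FOXA2 in one with 98.9%. None of the 8 genes was in the strongest 4 parts.

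**Figure D3:**
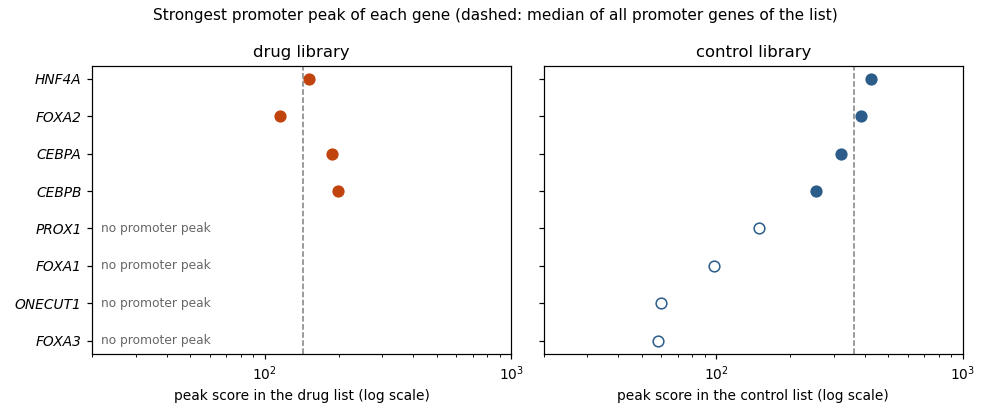
Score of the strongest promoter peak of each gene on a log scale, drug list on the left and control list on the right, with genes ordered by control score. Filled circles overlap a peak of the other library, open circles do not, and dashed lines mark the median over all promoter genes, 143 in drug and 361 in control.

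Among genes with a promoter peak in both lists, 6569 in all, those with the closest pair of ranks were PBX4 and LOC101930071 for HNF4A, MAFF and SETD4 for FOXA2, ZC3H3 and PSMG4 for CEBPA, and KIF4A and ANKRD36B for CEBPB. The measure was the summed difference in rank percentile over the 2 libraries, from 0.0879 percentage points for MAFF to 1.47 for PSMG4. MAFF, for example, scored 115 in drug and 387 in control, beside 115 in drug and 386 in control for FOXA2.

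HNF4A is a nuclear receptor that binds as a homodimer and drives much of the hepatocyte's gene expression. It is read from a pair of promoters, of which the downstream one serves the adult liver and the upstream one the fetal liver, pancreas and gut. The gene spans chromosome 20 from 44355699 to 44434596 in hg38, and the start sites of its promoters lie 45.6 kb apart. Both promoters had a peak in both libraries, which the count of promoter peaks does not show because the annotation placed the downstream one in exon 1 of 10.

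At the upstream promoter the drug peak covered 44355303 to 44355764 with a score of 151, in the top 22.4% of its list, and the control peak covered 44355203 to 44356115 with a score of 425, in the top 14.3%. At the downstream promoter the drug peak covered 44401127 to 44401640 with a score of 73, in the top 42.2%, and the control peak 44400906 to 44401850 with a score of 198, in the top 26.8%. The upstream promoter, which is not the adult liver one, thus had the higher score in each library. A peak 1.63 kb past the downstream start site, with a score of 96, was found in control alone.

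The strongest peak of all 8 genes in either list was not at a promoter but in intron 1 of 9 of HNF4A, 15.7 kb downstream of the upstream start site, at 44371413 to 44371641. It scored 302 in drug, in the top 9.37%, and 1016 in control, in the top 4.65%. Its limits were the same to the base in both lists, at a width of 229 bp. Such identical limits were seen for 381 of 19987 overlapped control peaks (1.91%), of which 116 lay in repeats, and the HNF4A peak was annotated to no repeat. A neighbouring peak at 44370764 to 44371157 scored 50 in drug, and its partner at 44370634 to 44371188 scored 265 in control.

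Counting by position inside the HNF4A gene, whatever name the annotation gave, the gene held 8 drug peaks and 16 control peaks. Of the control peaks 8 were overlapped, beside 40.1% of the whole control list. Peaks in its body were named for the antisense transcript HNF4A-AS1, for MIR3646 and for LINC01430. A peak within HNF4A-AS1 scored 103 in drug and 288 in control, and 1 in the last exon of HNF4A scored 66 in drug and 333 in control. The 5 peaks named for MIR3646, which lie in introns 4, 7 and 8 of the 10 in HNF4A, scored from 58 to 160 in control and had no drug partner. In the parts of the control list that hold these scores, 12.0% to 48.1% of peaks had one. At a distance of 41.1 kb from the gene, a control peak at the start of TTPAL scored 432 without a drug partner, in a part of the control list, of 10, where 97.1% of peaks had one.

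The window of 300 bases around the upstream HNF4A start site is shown because it lay wholly inside the peaks of both libraries. It is taken from RefSeq, GRCh38.p14, chr20:44355449-44355748, plus strand, 250 bases before the start site and 50 after. Capitals mark ATCAAT, a core that ONECUT proteins bind, beginning 33 bases before the start site, and a CCAAT box on the other strand. At 60.0% G and C and 11 CpG it had the fewest CpG of the 6 windows matched among the 8 genes, beside medians of 58.3% and 14 over 27305 promoters.
HNF4A: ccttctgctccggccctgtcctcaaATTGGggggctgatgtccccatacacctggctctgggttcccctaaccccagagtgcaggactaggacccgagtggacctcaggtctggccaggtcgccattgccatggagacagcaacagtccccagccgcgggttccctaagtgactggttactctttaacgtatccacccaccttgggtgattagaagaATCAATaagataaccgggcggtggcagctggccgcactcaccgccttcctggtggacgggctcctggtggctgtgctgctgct

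The 3 FOXA genes, which encode related forkhead proteins, had different layouts. FOXA2 had a single peak in each library, at its promoter. The drug peak lay at chromosome 20, 22584265 to 22584930, with a width of 666 bp and a score of 115, and the control peak at 22584090 to 22585234, with a width of 1145 bp and a score of 386. This was the widest peak of the 8 genes in each library, within the widest 19.6% of promoter genes in drug and the widest 7.42% in control. The only other peak within 50 kb of the gene was a control peak of score 52 in the long non-coding RNA gene LINC00261, without a drug partner.

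FOXA1 had no promoter peak in the drug library, while the control peak at its start site, chromosome 14, 37594919 to 37595697, was 779 bp wide with a score of 98. The nearest drug peak was the one in exon 2 of 2 of FOXA1, 3.16 kb away. A second control peak just upstream, named for the divergent neighbour TTC6, scored 123 and also lacked a drug partner. The annotation crosses these peaks, with the peak of score 98 in a TTC6 promoter and that of score 123 in the FOXA1 promoter. By name, the peak of score 98 was counted as the FOXA1 promoter. A score of 123 would fall among control promoters scoring 116 to 180, where 59.2% were overlapped. FOXA1 had peaks in both libraries inside and far beyond the gene. In exon 2 of 2 a peak scored 42 in drug and 149 in control.

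The strongest FOXA1 peak of both lists lay 48.3 kb downstream of the start site, in the last exon of the neighbouring gene MIPOL1, with a score of 87 in drug and 239 in control. The drug peak there was 200 bp wide against 660 bp in control. Farther away, in intron 12 of 13 of MIPOL1 and 129 kb from FOXA1, the peak scored 75 in drug and 116 in control. The annotation names FOXA1 here because its start site is the nearest, and which gene these sites serve was not measured. In a CpG island about 11 kb downstream each library had a weak peak of 200 bp, scoring 49 in drug and 30 in control, and these did not overlap, with 245 bp between them.

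FOXA3, the forkhead gene on chromosome 19, had a single peak, in control alone, at 45863884 to 45864430 with a score of 58. It faces SYMPK, a gene of messenger RNA 3' end processing, and the SYMPK promoter peak ended only 360 bp upstream of the FOXA3 peak. The SYMPK peak was among the stronger ones of both lists, with a score of 292 in drug and 956 in control. Within 50 kb of FOXA3 the drug list held 6 peaks and the control list 10. A drug partner was found for 5 of these control peaks, beside 40.1% of the whole control list. The 5 scored from 180 to 956, and those without a partner, FOXA3 included, from 46 to 73.

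The FOXA1 and FOXA3 promoter windows are shown as those covered entirely by a control peak and by no drug peak. Both are from RefSeq, GRCh38.p14, FOXA1 at chr14:37595200-37595499 on the minus strand and FOXA3 at chr19:45864076-45864375 on the plus strand. Capitals mark in FOXA1 a match to TGTTTGC, a core that forkhead proteins bind, on the other strand and 235 bases before the start site, and in FOXA3 a TATA box 30 bases before it. TGTTTGC was found in 3.87% of all promoter windows and TATAAA in 12.0%, on either strand.
FOXA1: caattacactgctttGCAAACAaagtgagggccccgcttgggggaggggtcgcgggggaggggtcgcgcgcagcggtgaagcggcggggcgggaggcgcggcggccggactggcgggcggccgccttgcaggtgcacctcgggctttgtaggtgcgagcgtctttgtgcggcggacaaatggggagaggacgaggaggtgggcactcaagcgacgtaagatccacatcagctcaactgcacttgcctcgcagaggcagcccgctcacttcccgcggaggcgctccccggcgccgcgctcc
FOXA3: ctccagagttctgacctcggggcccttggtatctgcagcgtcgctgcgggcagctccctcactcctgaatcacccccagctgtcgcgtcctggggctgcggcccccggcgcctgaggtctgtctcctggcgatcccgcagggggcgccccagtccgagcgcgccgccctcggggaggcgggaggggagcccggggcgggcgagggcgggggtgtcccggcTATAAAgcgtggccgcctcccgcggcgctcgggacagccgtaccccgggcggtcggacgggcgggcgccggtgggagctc

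CEBPA and CEBPB encode bZIP proteins of a single exon each. CEBPA holds hepatocytes in a resting, metabolic state, and CEBPB acts in the acute phase response and in regeneration. Their promoters were the 2 highest scoring promoters of the 8 genes in the drug list. The CEBPA drug peak lay at chromosome 19, 33302364 to 33302993, with a score of 187, and the control peak at 33302319 to 33302993, with a score of 321. These are near positions in their own lists, the top 17.8% in drug and the top 18.4% in control, and the right limits were identical. At CEBPB the drug peak lay at chromosome 20, 50190446 to 50191012, with a score of 199 in the top 16.7%, and the control peak at 50190392 to 50191064, with a score of 254 in the top 22.4%.

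Around both C/EBP promoters some control peaks had a drug partner and some did not. CEBPA had 2 further control peaks, downstream of the gene, with scores of 102 and 39 and no drug partner. A peak 14.0 kb from CEBPA, named for the divergent transcript CEBPA-DT, was found in both lists, with a score of 90 in drug and 345 in control. CEBPB had a peak 1.36 kb upstream, in the antisense gene CEBPB-AS1, with a score of 51 in drug and 189 in control. A second promoter peak of score 99 and an upstream peak of score 104 were found in control alone. Downstream of CEBPB, a pair of peaks named for CEBPB-AS1 was found in both lists, with scores of 30 and 35 in drug and 167 and 96 in control, where they lay 1.41 and 2.25 kb from the gene. Farther upstream, 24.1 kb from CEBPB and named for LINC01273, lay the strongest peak within 50 kb of any of the 8 genes, with a score of 565 in drug, in the top 2.88%, and 1871 in control, in the top 1.20%.

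The CEBPA window is shown as one that lay wholly inside the peaks of both libraries while sharing its core box with FOXA3. It is from RefSeq, GRCh38.p14, chr19:33302485-33302784, minus strand, and capitals mark the TATA box 30 bases before the start site, the same place as in FOXA3. With 80.7% G and C and 50 CpG it was the richest of the 6 windows, and only 1.29% of all promoter windows had as many CpG.
CEBPA: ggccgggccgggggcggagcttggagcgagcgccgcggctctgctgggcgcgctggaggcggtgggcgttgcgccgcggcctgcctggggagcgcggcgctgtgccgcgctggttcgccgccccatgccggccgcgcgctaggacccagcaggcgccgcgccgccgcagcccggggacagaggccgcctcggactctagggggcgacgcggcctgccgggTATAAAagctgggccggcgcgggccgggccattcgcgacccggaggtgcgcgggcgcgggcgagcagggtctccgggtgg

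Matches to the binding cores of the liver factors themselves were few in the 6 windows. No window held CAAAGTCCA or CAAAGGTCA, cores of HNF4A, which 0.359% and 0.410% of all promoters hold, nor TTGCGCAA or TTGCNNAA, cores of C/EBP proteins, which 0.128% and 10.6% hold. TGTTTAC, the other forkhead core, and ATCGAT, the other ONECUT core, were also not found, beside 3.41% and 0.776% of all promoters, and ATCAAT is held by 6.40%. CCAAT was found in HNF4A, CEBPB and ONECUT1 and in 35.7% of all promoters. All motifs were read on both strands.

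ONECUT1, a cut homeodomain factor also known as HNF6, had the most peaks of the 8 genes by name, though not by position. Their scores ran from 15 to 82 in drug and from 16 to 149 in control. The drug list held no peak inside the gene, which spans chromosome 15 from 52755053 to 52790336, while the control list held 5 there, among them the promoter peak at 52790243 to 52790442 with a score of 60. Overlap was found at 3 sites, all outside the gene.

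The highest scoring ONECUT1 peak of the drug list lay 8.43 kb upstream of the start site, at 52798537 to 52798985, with a score of 82, and its control partner began at the same base and also scored 82. Farther upstream a cluster of 3 control peaks lay about 15 to 16 kb from the start site, with scores of 36, 149 and 78, and the strongest of these had a drug partner of score 48. On the other side, 38.9 kb downstream of that start site in drug, a peak scored 37 in drug and 53 in control. CpG islands held 4 of the 10 control peaks and 1 of the 6 drug peaks of ONECUT1.

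ONECUT1 also had 3 of the 4 drug peaks without a control partner. They scored 26, 15 and 26 and lay 54.8 kb downstream and 61.0 and 89.9 kb upstream of the start site of the promoter peak, at least 15.6 kb from any control peak, and the weakest fell in a simple repeat. The remaining one was the FOXA1 peak in a CpG island. Over all drug peaks, 29.3% lacked a control partner. Peaks as low in the drug list as those of ONECUT1 were often without one, with 5.84% overlapped in the weakest of 10 parts and 52.2% in the third. The FOXA1 peak, with a score of 49, lay in the fifth, where 76.5% were overlapped.

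PROX1 encodes a homeodomain factor that, in mice, hepatoblasts need to leave the liver bud, and that also marks lymphatic endothelium. Its only drug peak lay 62.2 kb downstream of the start site at chromosome 1, 214050570 to 214050945, outside the gene, with a score of 214 in the top 15.2%. The control partner at 214050518 to 214051209 scored 517, in the top 11.8%. This was the second strongest peak of the 8 genes in both lists, after the HNF4A intron peak. The other 7 control peaks of PROX1 scored from 33 to 149 and none had a drug partner. In the parts of the control list that hold these peaks, 6.46% to 48.1% of peaks had one. Counted by position within 50 kb of PROX1, 4 of 13 control peaks were overlapped, beside 40.1% of the whole control list.

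The PROX1 control peaks without a partner included the promoter peak at 213987801 to 213988066, with a score of 149, and peaks in intron 1 of 4 with a score of 113, in exon 2 of 5 with 44, and in intron 4 of 4 with 33 and 42. RefSeq starts PROX1 upstream of the start site used by the authors' annotation, at 213983151, and a control peak of score 62 named for PROX1-AS1 covered that base without a drug partner. Between both start sites, a further peak named for PROX1-AS1 scored 44 in drug and 154 in control. By position, the PROX1 gene thus held 1 drug peak and 7 control peaks.

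Overlap was also counted by distance from the start site and by annotation class. Within 1 kb of a start site 5 of 11 control peaks of the 8 genes were overlapped, beside 70.1% of all control peaks at that distance. From 1 to 10 kb 3 of 11 were, beside 28.7%, and beyond 10 kb 7 of 16 were, beside 25.7%. The counts are small, the peaks share genes, and the differences were not tested. By class, 4 of 9 control promoter peaks were overlapped, beside 74.4% of all, 4 of 13 intron peaks beside 24.7%, 4 of 10 intergenic peaks beside 37.5%, and 2 of 4 exon peaks beside 29.4%. Outside promoters together, 11 of 29 control peaks were overlapped, beside 29.6%. Among drug peaks, overlap with control was found for 4 of 4 promoter peaks beside 97.6%, 4 of 4 intron peaks beside 50.9%, 2 of 2 exon peaks beside 81.0% and 4 of 8 intergenic peaks beside 60.1%, and outside promoters for 11 of 15 beside 57.9%.

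Where both libraries had a peak, the drug peak mostly lay within the control peak. This was so for 14 of 15 pairs, identical limits included, beside 70.8% of all pairs, and the drug peak was the narrower one in 14 of 15, beside 87.5%. The median drug peak was 68.1% as wide as its control partner, beside 72.5% over all pairs. The ratio ran from 30.3% at the FOXA1 site in MIPOL1 to 100% at the HNF4A intron site. The exception to nesting was the distant FOXA1 site in intron 12 of MIPOL1, where the drug peak began 19 bp before the control peak.

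**Figure D4:**
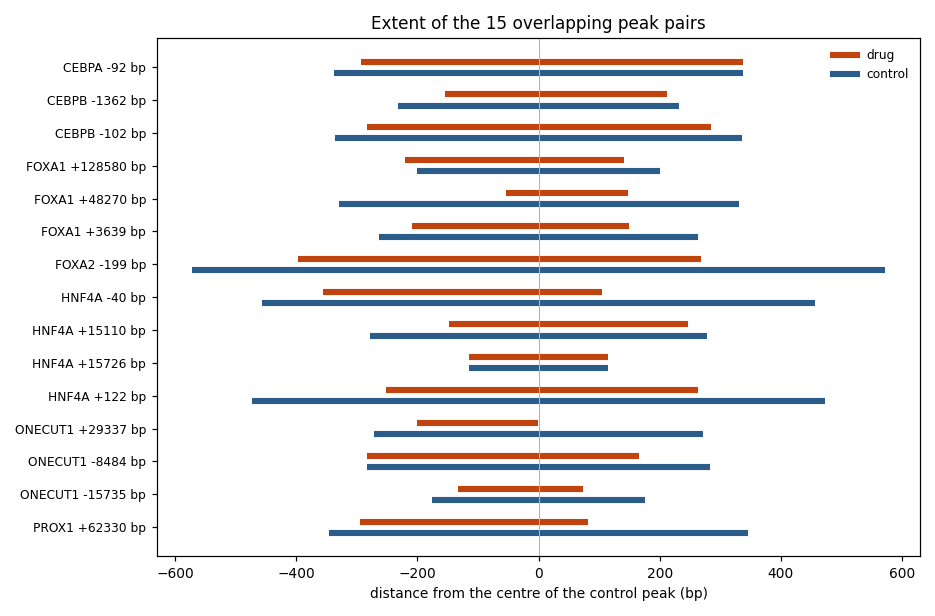
Extent in bp of the 15 overlapping peak pairs, drug above control, around the centre of the control peak. Labels give the gene and the distance of the control peak from its nearest start site. In 14 of 15 pairs the drug peak lies within the control peak, and the HNF4A pair at +15726 bp has identical limits.

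Within 50 kb of the 8 genes, counted by position, there were 38 drug peaks, 22 of them named for other genes, and 81 control peaks, 44 of them named for other genes. Of the drug peaks 34 were overlapped, beside 70.7% of the whole drug list, and of the control peaks 34, beside 40.1% of the whole control list. Inside the genes themselves lay 13 drug peaks, all with a control partner, beside the same 70.7%. There were 35 control peaks there, of which 13 had a drug partner, beside the same 40.1%.

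Other transcription factors of the liver were read in the same way. Of 40 such genes, 20 had a promoter peak in drug and 28 in control, and 21 of the 28 control promoters were overlapped by a drug peak (75.0%, 55.1 to 89.3), near the 77.7% of all promoter genes. The strongest were ZBTB20, a repressor of alpha-fetoprotein in mice, with 442 in drug and 1795 in control, and XBP1, a factor of the secretory pathway, whose control promoter peak of 1780 was overlapped by a drug peak of 768 in its exon class. The promoter of CEBPD, a further C/EBP gene, scored 279 in control and was not overlapped. It fell among control promoters scoring 263 to 361, where 93.4% were overlapped. Counting all classes, CEBPD had 6 drug peaks, and 5 of its 14 control peaks were overlapped, beside 40.1% of the whole control list. The paralogs HNF4G and ONECUT2 had promoter peaks in both lists, with 66 in drug and 312 in control for HNF4G and 103 in drug and 301 in control for ONECUT2.

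Genes that carry out hepatocyte functions were also read. Of 40, 11 had a promoter peak in drug and 14 in control. Of the 14, 12 were overlapped (85.7%, 57.2 to 98.2), beside 77.7% of all control promoter genes, a share inside that interval. VTN, a plasma protein, had a drug peak of 352 in the 5' UTR class over its control promoter peak of 1266. AMBP and HPD, with 125 and 33 in control, were not overlapped. Albumin, the main product of hepatocytes, had no promoter peak in either list.

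Promoter peaks at markers of other cells were counted in the same way. In drug they were found at 1 of 10 blood markers, 1 of 9 fibroblast and endothelial markers, 2 of 6 intestine markers, 2 of 6 neuron markers and 3 of 8 bile duct and progenitor markers. In control the numbers were 1, 1, 2, 4 and 3 in the same order. Of these control promoters 1, 0, 1, 2 and 3 were overlapped by a drug peak, beside 77.7% of all control promoter genes. In all, 7900 genes had a promoter peak in drug and 9106 in control, and 18486 genes had a peak of any class in either list. SOX4 led the bile duct and progenitor markers with 355 in drug and 840 in control, followed by HES1 with 98 in drug and 468 in control and SOX9 with 33 in drug and 110 in control. SNAP25 led the neuron markers with 279 in drug and 628 in control. The bile duct and progenitor markers KRT7, KRT19, EPCAM and PROM1 and the blood marker PTPRC had no promoter peak in either library. The part of such cells in the results above was not tested.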

How the data were processed

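Each library came as 1 table of peaks. Per the file headers, HOMER annotated against hg38 a MACS2 narrow peak file of that library alone, whose name points to duplicate removal. The deposited value of each peak is its score, which by the MACS2 convention moves with depth. The aligner, tool versions, depth and any background library were not given in the sources. The lowest score was 13 in both lists. In the control list 1 line was emptied for this work and is not analysed here.

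Samples were grouped by title. Peaks were compared by position in Python 3.11.15 with pandas 2.3.3, with at least 1 bp shared and 1-based coordinates. Shares carry exact Clopper-Pearson 95% intervals from SciPy 1.17.1, and the overlap code was checked on simulated lists. Peaks of equal score were ordered by position when lists were split into 10 parts. A promoter peak is one in the authors' promoter class. Gene limits and promoter windows are from RefSeq GRCh38.p14, the same build, and 6 of 8 genes matched a window. No test was possible. The genes, lists and rules were chosen with earlier results of these data known. The text names all 8 genes, up to 2 overlapped and 2 other promoters per list, and the 2 closest genes in rank; a few genes that this rule names are not reported here. HNF4G, ONECUT2, albumin, SOX9, KRT7, KRT19, EPCAM, PROM1, PTPRC and the neighbouring genes were added after their values were seen.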

Additional observations from a re-analysis of the deposited data

How the results depend on the processing

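Counts and shares were recomputed under 9 alternatives, 73 values in all, and 69 stayed within 1.5 times the count or within the interval of the share. These limits are wide, so staying within them does not show that a value was stable. Keeping only the strongest control peaks, as many as the drug list has, left 26 of the 38, and 53.8% were overlapped. With centres within 1 kb as the rule, 55.3% of the 38 were. Both shares lay inside the interval around 39.5%, 24.0 to 56.6, and whole-list shares are not given for these settings. With scores of 50 or more, the drug list kept 12 peaks of the 8 genes and 100% of them overlapped a control peak. With peaks taken by position within 50 kb in place of name, the genes had 38 drug and 81 control peaks. Promoter overlap stayed at 4 of 8 genes or came to 5 (with neighbours within 500 bp merged, with centres within 1 kb, or by position), and the added gene was FOXA3 each time, beside the SYMPK promoter. Overlap of any class then came to 8 of 8 genes. No paired analysis was possible because each group has 1 library. The lack of replicates, the unknown depth and the unnamed antibody limit every result.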
